A study of Rattus norvegicus with 6 samples.

Results

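The genes described here make fatty acids from sugar-derived carbon in the liver. They are the 10 symbols Acly, Me1, Acaca, Acacb, Mid1ip1, Fasn, Elovl6, Elovl5, Scd and Scd2. A gene entered through a probe set that the platform annotation ties to exactly 1 symbol, taking the one with the highest mean over the arrays where there were several. Each of the 10 had 1 such probe set, among 14506 named genes on the array. Livers came from adult male Wistar rats on 6 diets, with 5 rats per diet and 30 in all. Liver RNA of the 5 rats was pooled, so that each diet is 1 pool on 1 array.

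The diets were high protein with high sucrose and high fat (HP-HS-HF), high protein with high sucrose and low fat (HP-HS), high protein with low fat (HP), normal protein with high sucrose and high fat (NP-HS-HF), normal protein with high sucrose and low fat (NP-HS), and normal protein with low fat (NP). The sucrose and fat content of a diet is called its background here, and the 3 backgrounds each occur at 2 protein levels. All rats first ate the normal protein diet for 10 days, then their own diet for 5 weeks. They were killed 2 h after a meal of fixed energy, 87.6 kJ, so every pool is of fed liver. The word mice stands in the labels' source fields, but organism and growth protocol both name the rat.

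As background, liver turns surplus carbohydrate into fat by exporting citrate from mitochondria, splitting it to acetyl-CoA, carboxylating that to malonyl-CoA and condensing malonyl units into palmitate with reducing power from NADPH. Palmitate is then elongated and given a double bond before it is esterified into triglyceride. Most of the genes are textbook targets of SREBP-1c, which insulin activates, and several also of ChREBP, which responds to carbohydrate, and of the oxysterol receptor LXR. In rodents fasting lowers their mRNA and a carbohydrate meal after it raises them strongly.

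Signals are the deposited log2 values, where a difference of 1 is a doubling, and signals of different probe sets are not set against each other. The medians of the 6 arrays lay within 0.033 of each other, between 6.22 and 6.25. All 10 genes passed the filter on low values (mean over the arrays above log2 5.14), as did 20450 of 29214 probe sets. In a pool, less RNA per cell and fewer cells of a type cannot be told apart. Hepatocyte markers were among the most abundant transcripts, with 8 of 8, from albumin to Hnf4a, at or above the 98.6th percentile of probe sets. Their summed linear signal was 69659 to 71828 on the HP arrays and 69893 to 71569 on the NP arrays.

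High protein diets had lower signals than normal protein diets for most of these genes. In 7 of the 10 genes the high protein array was lower in all 3 backgrounds, from citrate cleavage (Acly) to desaturation (Scd). Scd2 was higher with high protein in all 3, and Acacb and Elovl6 had mixed signs. Over all probe sets tested, 14.9% were lower in all 3 backgrounds and 14.6% higher in all 3. The largest fitted difference was that of Scd, the main stearoyl-CoA desaturase of liver, at a log2 difference of -0.91 ± 0.17 SE, or 1.88-fold lower. Its 3 paired differences had an SD of 0.50. An SE here is that of the model fit, with a variance moderated across probe sets, and not that of the 3 pairs. Of the 10 fitted differences 8 were below 0, as were 50.6% of all, and their median was -0.30, against -0.0014 over all probe sets tested. The median was -0.39 between the low fat arrays, -0.17 between the high sucrose arrays and -0.24 between the arrays with sucrose and fat.

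No single gene of the 10 passed the test. The test was limma over 20450 probe sets with Benjamini-Hochberg adjustment, in a model of protein level plus background, and 9 probe sets (0.044%) passed it at 0.05. At an unadjusted p under 0.05, 5 of the 10 were lower and 1 was higher, where 4.03% of all probe sets were lower and 4.68% higher. The 5 were Me1, Acaca, Scd, Mid1ip1 and Fasn, and the 1 was Acacb. Every HP array lay below every NP array for 6 genes, against 7.58% of all probe sets, and above for 1 gene, against 7.35%. High protein was 1.5-fold or more lower in 3 genes on low fat (Scd, Elovl6 and Me1), against 0.641% of probe sets, in 0 on high sucrose, against 0.523%, and in 2 on high sucrose with high fat (Scd and Acaca), against 0.66%. The range over the 6 arrays was 1.5-fold or more in 5 genes, against 6.47% of probe sets. No diet had a second pool, so a gene's own variance mixes how protein differences vary between backgrounds with the spread of pools and arrays. A p-value rests on it only in part, because limma moderates each variance towards that of all probe sets. The gene's own variance has 2 degrees of freedom and the prior 4.37.

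**Figure D1:**
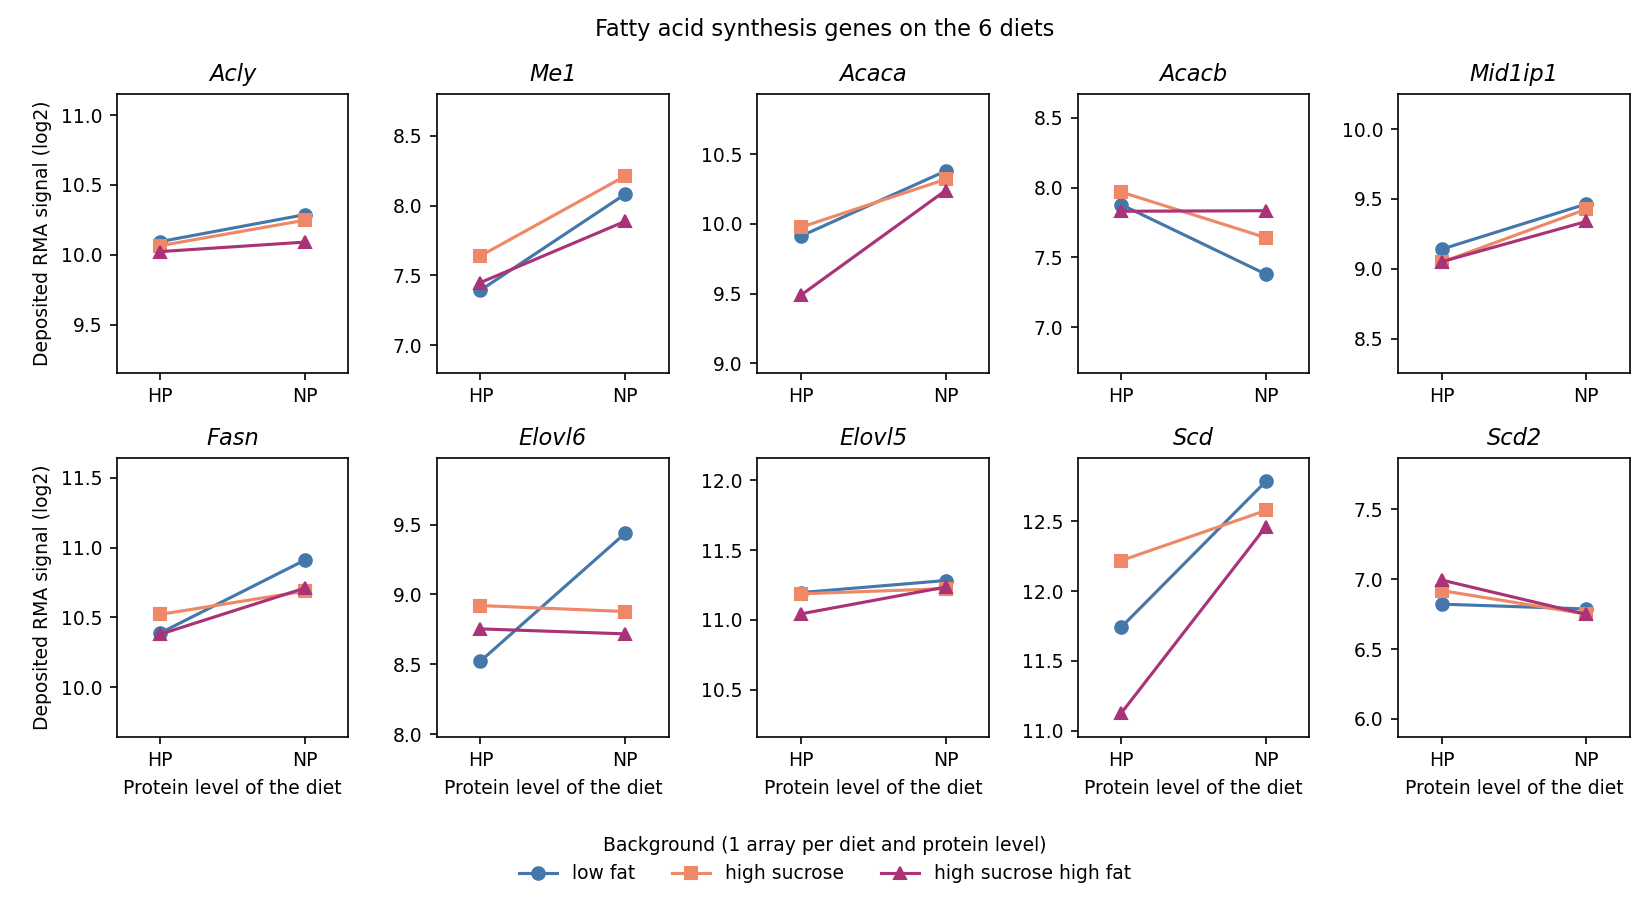
Deposited log2 signal (vertical axis, 2 log2 units in every panel) of the 10 genes on the high protein (HP, left) and normal protein (NP, right) array of each background, with 1 array per point and a line joining the arrays of 1 background. Scd lies between 11.13 and 12.22 on the HP arrays and between 12.46 and 12.79 on the NP arrays. The 3 lines of Scd2 and those of Acacb on low fat and high sucrose slope the other way. Those of Elovl6 on high sucrose (HP minus NP 0.043) and on high sucrose with high fat (0.036) also do, slightly.

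Markers of other liver cells were read beside these values. Of all probe sets tested, 50.6% had a fitted protein difference below 0. At an unadjusted p under 0.05, 4.68% were higher, and 0.044% passed limma. Macrophage markers were higher with high protein in 10 of 10 genes (median 0.21, 7 at an unadjusted p under 0.05, 0 past limma). Their summed linear signal was 3838 to 4448 on the HP arrays and 3429 to 3775 on the NP arrays, and the defining markers Cd68 and Clec4f were at 8.69 or more on every array. Bile duct markers were higher in 5 of 5 (median 0.17, 1 at an unadjusted p under 0.05, 0 past limma). Their means ran from the 41.3rd to the 51.3rd percentile of probe sets. Their sums were 353 to 387 on the HP arrays and 316 to 350 on the NP arrays. The ranges of these sums did not overlap for either cell type. Among single probe sets, 7.35% had every HP array above every NP array. Stellate cell markers were above 0 in 6 of 8 and had sums of 1921 to 2102 on HP arrays and 1784 to 2065 on NP arrays, and endothelial markers were above 0 in 4 of 4, with 2344 to 2404 on HP arrays and 2221 to 2354 on NP arrays. Adipocyte markers, of a tissue that also makes fatty acids, had 3 of 7 above 0 and sums of 1453 to 1717 on HP arrays and 1403 to 1559 on NP arrays. The adipocyte hormone genes Adipoq and Lep were at or below 5.65 on every array. Cidec of the same list lay between 10.02 and 10.37 and made up most of each adipocyte sum. Means of the 7 adipocyte markers ran from the 30.7th to the 94.3rd percentile of probe sets, with a median at the 41.6th. The part of other cell types in the differences of the 10 genes was not tested.

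Promoter sequence is printed for the genes at the ends of the range of protein differences, Scd and Me1 with the largest fitted differences below 0 and Acacb and Scd2 with those above 0, so that the letters can be read beside the values below. RefSeq (build GRCr8) gave a promoter for 7 of the 10 genes and none here for Acaca, Fasn and Elovl6. Each line holds the 250 bases before the annotated start, 5′ to 3′ on the gene's strand. They lie at chr1:253231732-253231981 on the minus strand (Scd), chr8:96540245-96540494 on the minus strand (Me1), chr12:48138215-48138464 on the minus strand (Acacb) and chr1:253118127-253118376 on the plus strand (Scd2). Capitals mark matches on either strand to CCAAT, the box bound by NF-Y, or to GGGCGG, the box of Sp1-type factors.
Scd: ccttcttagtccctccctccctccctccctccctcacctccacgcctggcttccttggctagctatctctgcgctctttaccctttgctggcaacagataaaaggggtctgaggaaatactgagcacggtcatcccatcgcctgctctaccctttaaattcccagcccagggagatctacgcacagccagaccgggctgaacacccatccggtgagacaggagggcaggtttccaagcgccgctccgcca
Me1: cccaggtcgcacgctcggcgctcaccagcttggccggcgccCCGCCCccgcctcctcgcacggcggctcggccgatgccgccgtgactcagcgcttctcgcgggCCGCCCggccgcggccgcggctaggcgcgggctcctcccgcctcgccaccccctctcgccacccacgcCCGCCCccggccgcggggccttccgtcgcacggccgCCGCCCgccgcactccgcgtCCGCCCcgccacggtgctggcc
Acacb: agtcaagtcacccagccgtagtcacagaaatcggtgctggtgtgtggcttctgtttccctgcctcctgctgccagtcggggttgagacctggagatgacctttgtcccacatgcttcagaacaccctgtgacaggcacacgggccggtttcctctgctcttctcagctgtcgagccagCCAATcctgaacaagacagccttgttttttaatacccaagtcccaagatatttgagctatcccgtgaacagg
Scd2: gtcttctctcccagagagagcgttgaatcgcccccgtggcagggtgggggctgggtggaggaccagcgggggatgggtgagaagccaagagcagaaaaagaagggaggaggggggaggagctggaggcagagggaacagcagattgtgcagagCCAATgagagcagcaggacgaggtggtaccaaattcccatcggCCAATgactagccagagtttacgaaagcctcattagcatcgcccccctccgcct

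The search covered 6 motifs on both strands of the 7 promoters, and no matches overlapped. CCAAT occurred in 4 of 7 (Acacb, Acly, Elovl5 and Scd2), against 34% of 33469 promoters of the same length. GGGCGG occurred in 3 of 7 (Acly, Me1 and Mid1ip1), against 30.5%, with 5 matches in the Me1 window, which is 83.2% G or C where the median promoter is 51.2%. CACGTG, an E-box that USF factors and ChREBP bind, occurred in Elovl5 and in 5.59% of promoters. TCACNCCAC, a form of the sterol element of SREBPs, occurred in 0 of 7 and in 0.974% of promoters. The DR4 element of LXR, taken as AGGTCA repeated after 4 bases, occurred in 0 of 7 and in 1 of the 33469. TATAAA occurred in 0 of 7, against 12.9%. The Scd window held none of the 6 motifs and that of its neighbour Scd2 held 2 CCAAT boxes, 54 and 97 bases before the start at their far ends. Sequence further upstream than these 250 bases was not searched.

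The first steps supply carbon and reducing power. Acly, ATP citrate lyase, which splits cytosolic citrate into acetyl-CoA and oxaloacetate, varied little. It stood at 10.09 on HP against 10.29 on NP, at 10.06 on HP-HS against 10.25 on NP-HS, and at 10.02 on HP-HS-HF against 10.09 on NP-HS-HF. The groups overlapped, because the HP array was marginally above the NP-HS-HF array. Its fitted difference was -0.15 ± 0.067 SE (adjusted p = 0.624), and the whole range over the 6 arrays was 1.2-fold.

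Me1, the cytosolic malic enzyme that makes NADPH while turning malate into pyruvate, was low on every high protein array. Its signal was 7.39 on HP against 8.08 on NP, 7.64 on HP-HS against 8.21 on NP-HS, and 7.45 on HP-HS-HF against 7.89 on NP-HS-HF. The highest HP array lay below the lowest NP array. Me1 came nearest to the threshold among the 10 genes, with a fitted difference of -0.57 ± 0.075 SE, 1.48-fold lower (adjusted p = 0.104, rank 42 of 20450 by p). The protein difference was largest on low fat, at -0.69, and smallest on high sucrose with high fat, at -0.44.

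The next step makes malonyl-CoA, and its 2 carboxylases differed in direction. Acaca encodes acetyl-CoA carboxylase 1, whose cytosolic malonyl-CoA is the building block of new fatty acids. Acaca was at 9.91 on HP against 10.38 on NP, at 9.98 on HP-HS against 10.32 on NP-HS, and at 9.49 on HP-HS-HF against 10.24 on NP-HS-HF. The groups did not overlap, and the HP-HS-HF array was 0.42 below the next lowest. The fitted difference of Acaca was -0.52 ± 0.093 SE, 1.43-fold lower (adjusted p = 0.169).

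Acacb encodes acetyl-CoA carboxylase 2 of the mitochondrial surface, whose malonyl-CoA holds back fatty acid entry through CPT1. Its signal was 7.88 on HP against 7.38 on NP, 7.97 on HP-HS against 7.64 on NP-HS, and 7.83 on both HP-HS-HF and NP-HS-HF. High protein was thus above normal protein by 0.50 on low fat and by 0.33 on high sucrose. The arrays on high sucrose with high fat differed by -0.0039. The fitted difference was 0.27 ± 0.10 SE (adjusted p = 0.528). It became 0.41 without the HP-HS-HF or the NP-HS-HF array, and 0.16 without the HP or the NP array.

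Within an array, Acacb minus Acaca was larger with high protein in every background. The excess of this log2 difference on the high protein array was 0.96 on low fat, 0.67 with sucrose and 0.75 with sucrose and fat, a mean of 0.79 ± 0.15 (SD, 3 pairs). An exact two-sided sign-flip test over the 3 pairs gave p = 0.25, the smallest that 3 pairs allow. These values show an unequal difference of the 2 probe sets and nothing of either one's absolute level.

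Mid1ip1, also called MIG12, encodes a protein that makes acetyl-CoA carboxylase polymerise and raises its activity. Its protein difference was the most even of those past an unadjusted p of 0.05. Signals were 9.14 on HP against 9.46 on NP, 9.05 on HP-HS against 9.43 on NP-HS, and 9.05 on HP-HS-HF against 9.34 on NP-HS-HF. The groups were separate, and the 3 paired differences lay between -0.38 and -0.29. The fitted difference was -0.33 ± 0.065 SE, 1.26-fold lower (adjusted p = 0.209).

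Fasn, the multienzyme fatty acid synthase that builds palmitate, was at 10.39 on HP against 10.91 on NP, at 10.52 on HP-HS against 10.69 on NP-HS, and at 10.38 on HP-HS-HF against 10.71 on NP-HS-HF. All HP arrays were below all NP arrays, with the NP array 0.20 above the next highest. Its fitted difference was -0.34 ± 0.086 SE, 1.27-fold lower (adjusted p = 0.337). The paired difference was -0.52 on low fat, -0.17 with sucrose and -0.33 with sucrose and fat.

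Elovl6, an elongase that lengthens palmitate to stearate, differed most with protein on the low fat diet. It was at 8.52 on HP against 9.44 on NP, at 8.92 on HP-HS against 8.88 on NP-HS, and at 8.75 on HP-HS-HF against 8.72 on NP-HS-HF. The NP array was 0.52 above the next highest array and the HP array the lowest of all 6. The fitted difference was -0.28 ± 0.19 SE (adjusted p = 0.764) and became 0.039 without the HP or the NP array.

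Elovl5, which elongates polyunsaturated fatty acids, had the narrowest range of the 10, 1.18-fold. Signals were 11.20 on HP against 11.28 on NP, 11.19 on HP-HS against 11.22 on NP-HS, and 11.04 on HP-HS-HF against 11.24 on NP-HS-HF. The HP arrays were below the NP arrays without overlap, by small steps. For protein it had a fitted difference of -0.11 ± 0.068 SE (adjusted p = 0.752).

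Desaturation closes the pathway, and its 2 genes also had differences of opposite sign. Scd, which puts the double bond into stearate and palmitate, was at 11.74 on HP against 12.79 on NP, at 12.22 on HP-HS against 12.58 on NP-HS, and at 11.13 on HP-HS-HF against 12.46 on NP-HS-HF. All HP arrays were below all NP arrays, and the HP-HS-HF array was 0.62 below the next lowest. Scd had the widest range of the 10 genes, 3.16-fold. High protein was 2.06-fold lower on low fat, 1.28-fold with sucrose and 2.52-fold with sucrose and fat. The adjusted p of its fitted difference, given above, was 0.197.

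Scd2, a desaturase that in mice is best known from brain and neonatal tissue, was at 6.82 on HP against 6.79 on NP, at 6.92 on HP-HS against 6.75 on NP-HS, and at 6.99 on HP-HS-HF against 6.75 on NP-HS-HF. The HP arrays were the higher ones without overlap, and the smallest difference was on low fat. Its fitted difference was 0.15 ± 0.072 SE, 1.11-fold higher (adjusted p = 0.652). Scd2 minus Scd within an array was larger with high protein by 1.08 on low fat, 0.53 with sucrose and 1.58 with sucrose and fat (exact two-sided sign-flip test, p = 0.25, the smallest that 3 pairs allow). The same quantity for Elovl5 minus Elovl6 was 0.83, -0.080 and -0.23 in that order, with mixed signs (exact two-sided sign-flip test, p = 1).

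**Figure D2:**
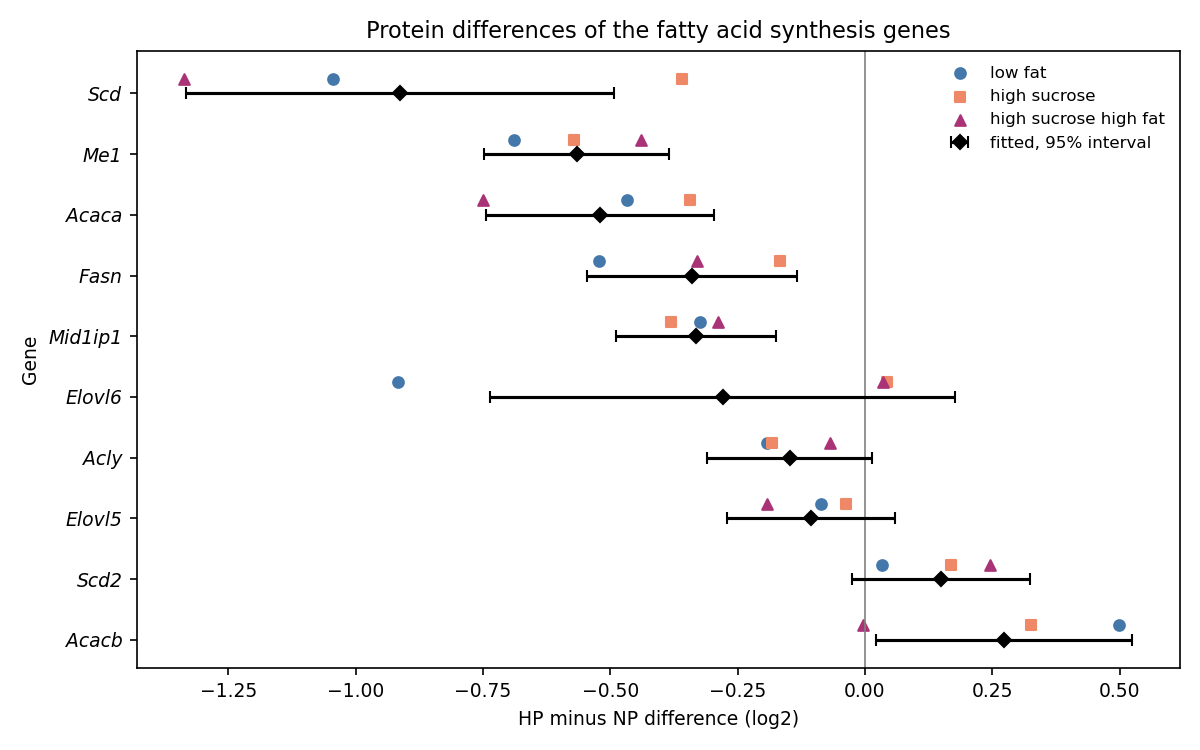
High protein minus normal protein difference (log2, horizontal axis) of each gene, with 1 coloured point per background above a black diamond for the fitted difference and its 95% interval. The intervals of Scd, Me1, Acaca, Fasn and Mid1ip1 lie below 0 and that of Acacb above it, none adjusted for the number of probe sets, and the low fat point of Elovl6 stands far from its other points.

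Fitted sucrose differences of these genes were small. In the contrast of high sucrose with low fat over both protein levels, 0 of the 10 passed limma, as did 0% of all probe sets. At an unadjusted p under 0.05 there were again 0, where 1.55% of all probe sets were lower and 1.47% higher. The fitted difference was below 0 for 5 of the 10 genes and for 50.1% of all. The fitted differences lay between -0.081 (Elovl6) and 0.19 (Me1), with a median of -0.016 against -0.00011 over all probe sets. At high protein 3 of the 10 were lower with sucrose (HP-HS minus HP, median 0.094), against 50.9% of all probe sets. At normal protein 8 of the 10 were (NP-HS minus NP, median -0.049), against 49.7%. Fewer than 1% of probe sets differed 1.5-fold or more in either comparison, 0.372% lower and 0.518% higher at high protein, and 0.499% and 0.367% at normal protein. None of the 10 genes did.

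Scd had a sucrose difference of 0.48 at high protein and -0.21 at normal protein. Fasn was at 0.13 and -0.22 in the same order, and Elovl6 at 0.40 and -0.56. Me1 and Acacb were higher with sucrose at both protein levels, Me1 by 0.25 at high protein and 0.13 at normal protein, Acacb by 0.090 and 0.26. Whether these differences depend on protein level was not tested, because the interaction leaves no residual degrees of freedom.

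Signals of Scd, Me1 and Acaca were lower where fat was added to high sucrose. The fitted differences were -0.60 ± 0.21 SE for Scd (1.52-fold lower, adjusted p = 0.96), -0.26 ± 0.092 SE for Me1 (adjusted p = 0.971) and -0.28 ± 0.11 SE for Acaca (adjusted p = 0.994). They depended on single arrays. Scd was at -0.19 without the HP-HS array and at -1.02 without the NP-HS array, Acaca at -0.11 without HP-HS-HF and -0.46 without NP-HS-HF, and Me1 at -0.35 without HP-HS-HF and -0.16 without NP-HS-HF. By limma 0 of 10 passed, as did 0% of all probe sets, and these 3 had an unadjusted p under 0.05, against 2.45% of all probe sets lower and 2.5% higher. The fitted difference was below 0 for 8 of the 10 and for 51.1% of all. The median of the 10 was -0.083, against -0.0026 over all probe sets.

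The fat difference of Scd was -1.09 at high protein (HP-HS-HF minus HP-HS, 2.13-fold lower) and -0.12 at normal protein (NP-HS-HF minus NP-HS). Acaca showed the same order, -0.49 at high protein and -0.080 at normal protein. Me1 had -0.19 at high protein and -0.32 at normal protein. Scd at high protein was the member with a fat difference of 1.5-fold or more, where 0.592% of all probe sets were that much lower, and at normal protein 0 members and 0.489% were.

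High sucrose with high fat against low fat gave a median of -0.11 over the 10 genes, against -0.0027 over all probe sets, with 8 of the 10 below 0 (51.2% of all probe sets). By limma 0 of 10 passed, as did 0% of all probe sets. Acaca alone had an unadjusted p under 0.05, against 2.61% of probe sets lower and 2.57% higher, with -0.28 ± 0.11 SE (adjusted p = 0.953). Scd was at -0.47 ± 0.21 SE (adjusted p = 0.959), with -0.62 at high protein and -0.32 at normal protein. Without the HP-HS-HF array these fitted values were -0.11 for Acaca and -0.15 for Scd, and without the NP-HS-HF array -0.45 and -0.79. Elovl6 was at 0.23 at high protein and -0.72 at normal protein, and Acacb at -0.048 and 0.45. The 1.5-fold mark was passed downward by Scd at high protein (0.548% of all probe sets) and by Elovl6 at normal protein (0.626%).

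**Figure D3:**
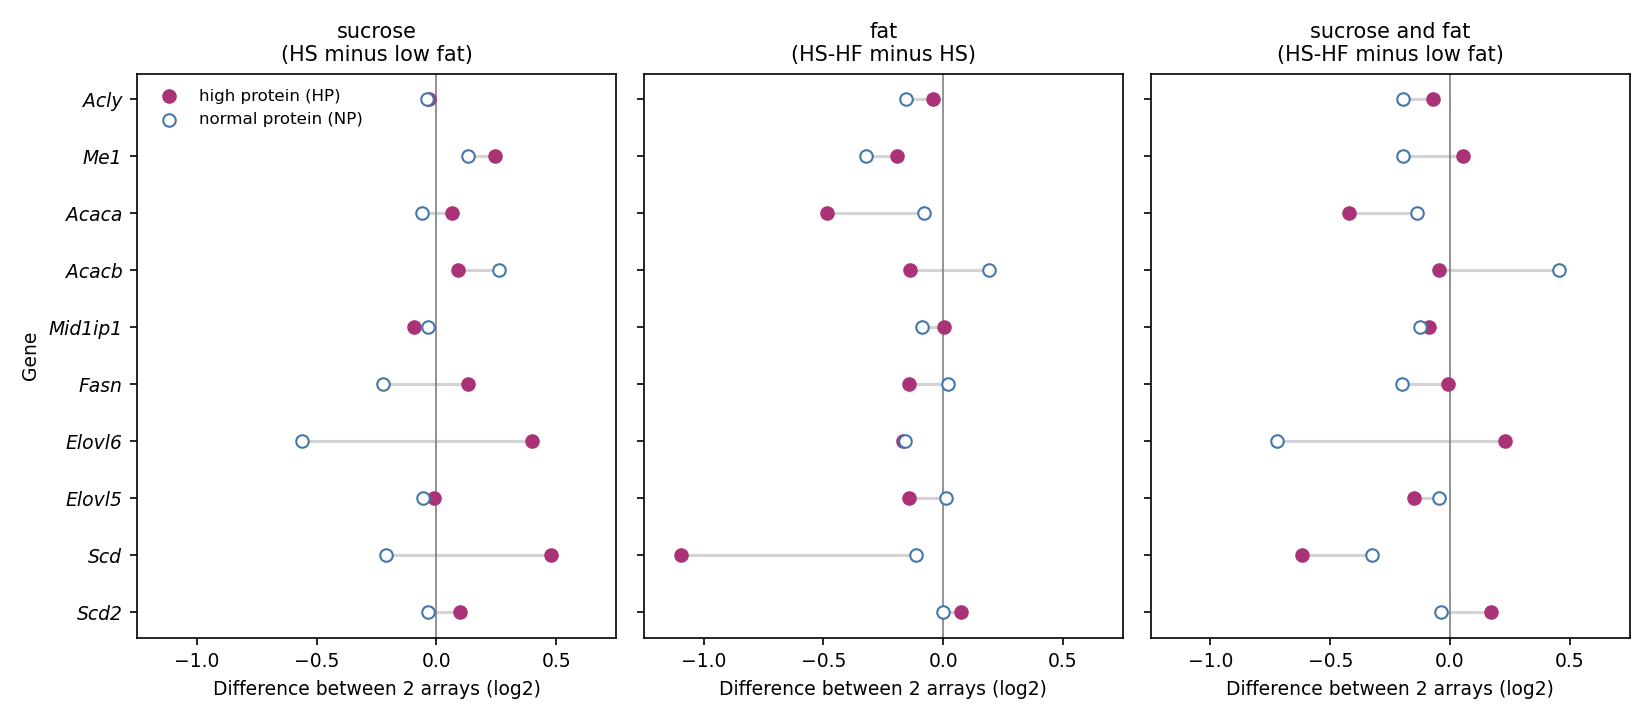
Differences between 2 arrays (log2, horizontal axis) for sucrose, for fat added to sucrose, and for sucrose and fat together, at high protein (filled) and normal protein (open), with the 2 points of a gene joined. Scd has a fat difference of -1.09 at high protein and -0.12 at normal protein, and Elovl6 has a sucrose difference of 0.40 and -0.56.

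Over the 6 diets the NP array had the highest signal for 7 of the 10 genes, where 17% of all probe sets were highest on it. The HP-HS-HF array had the lowest for 5 of the 10, where 19.9% were lowest on it. Relative to each gene's own mean, the median of the 10 genes was -0.17 on HP-HS-HF, -0.039 on HP-HS, -0.12 on HP, 0.087 on NP-HS-HF, 0.10 on NP-HS and 0.26 on NP. Over all probe sets tested these medians were within 0.0032 of 0.

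Acaca and Scd had the same order of diets, which with the lowest first was HP-HS-HF, HP, HP-HS, NP-HS-HF, NP-HS and NP. Neighbours in a gene's order often differed by less than the gene's residual SD after limma's moderation across probe sets. That held for 4 of the 5 steps in Acly, Elovl5, Elovl6 and Scd2, for 3 in Acaca and Acacb, for 2 in Mid1ip1, Fasn and Scd, and for 1 in Me1. The step between the lowest NP and the highest HP array exceeded that SD in Me1, Acaca, Mid1ip1, Fasn and Scd, at 0.25, 0.26, 0.20, 0.17 and 0.24, and was under it in Elovl5 (0.028) and Scd2 (0.035).

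**Figure D4:**
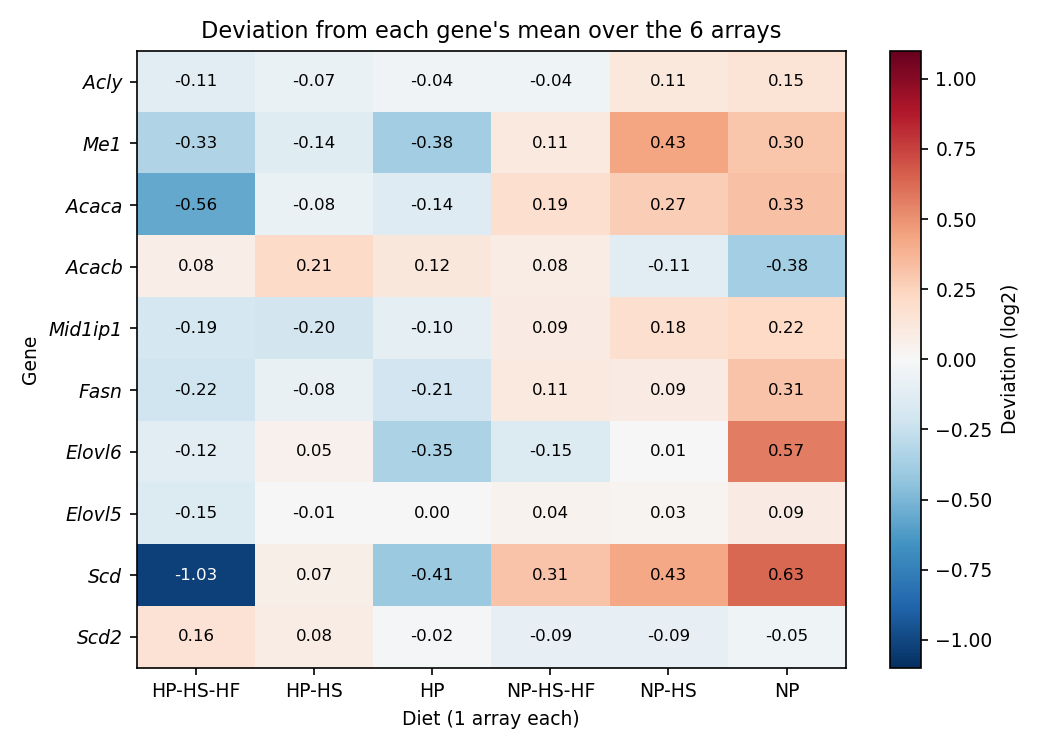
Deviation of each gene (rows) on each array (columns, high protein diets left) from its mean over the 6 arrays, in log2. Scd spans -1.03 on HP-HS-HF to 0.63 on NP, and Elovl6 stands at 0.57 on NP and within 0.35 of its mean elsewhere.

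Genes with the most similar pattern were sought among 475 other named genes whose range over the arrays was 1.5-fold or more. To the mean of the 10 standardised profiles the closest by Pearson correlation over the 6 arrays were the GTPase Gimap9 (r = 0.959), Decr1, the mitochondrial 2,4-dienoyl-CoA reductase (0.954), Plekhb1 (0.952), the stress-induced Nupr1 (0.938) and Zfyve1 (0.937). To Fasn alone they were the retinaldehyde dehydrogenase Aldh1a1 (0.954), the phenobarbital-inducible cytochrome Cyp2b2 (0.953), Dpp6 (0.943), UST4r (0.943) and Trim80 (0.923). With 6 points such values are a description, and 20 of the 475 exceeded 0.9 for the mean profile and 13 for Fasn. Decr1 was at 9.51 on HP against 9.97 on NP, at 9.62 on HP-HS against 10.04 on NP-HS, and at 9.38 on HP-HS-HF against 9.79 on NP-HS-HF.

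The rest of the lipogenic system gives the setting, in 9 lists of which 0 genes passed limma for protein in either direction. Over all probe sets tested 0.044% passed it, and 50.6% had a fitted protein difference below 0. Of 16 genes that supply acetyl-CoA and citrate, 14 were tested, 3 with a fitted protein difference above 0 and 11 below, with a median of -0.065. Pklr, the liver pyruvate kinase, was at 10.13 on HP against 10.62 on NP, at 9.97 on HP-HS against 10.46 on NP-HS, and at 9.74 on HP-HS-HF against 10.22 on NP-HS-HF. It was lower by nearly the same amount in each background (-0.49 ± 0.063 SE, adjusted p = 0.0941). Pklr also had the largest sucrose and fat difference of the list (-0.39 ± 0.078 SE, adjusted p = 0.76). Pyruvate carboxylase, Pc, was at -0.24 ± 0.064 SE (adjusted p = 0.375).

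Among NADPH suppliers other than Me1, 9 genes were tested, 4 above 0 and 5 below (median -0.053). Me2, a mitochondrial malic enzyme of this list that works mainly with NAD rather than NADP, was at 0.28 ± 0.079 SE (adjusted p = 0.39). Me3, also mitochondrial and added after its values were seen, was at 0.060 ± 0.069 SE (unadjusted p = 0.422). The transhydrogenase Nnt was at -0.20 ± 0.074 SE (adjusted p = 0.525), and Tkt, transketolase, had the largest sucrose and fat difference (-0.17 ± 0.090 SE, adjusted p = 0.979).

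Other elongases and desaturases had a median of 0.087, with 6 of 9 tested above 0. Fads1, the delta-5 desaturase of polyunsaturated fatty acids, was at 0.29 ± 0.10 SE (adjusted p = 0.485), and Elovl2, an elongase of the same pathway, at 0.27 ± 0.075 SE (adjusted p = 0.392). The reductase of the elongation cycle, Tecr, was at -0.18 ± 0.075 SE for protein (adjusted p = 0.563) and at -0.15 ± 0.091 SE for sucrose and fat (adjusted p = 0.996).

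Genes that control acetyl-CoA carboxylase had a median of -0.021, with 3 of 11 above 0. Prkaa1, a catalytic subunit of AMP-activated kinase, which inactivates the carboxylases, was at 0.18 ± 0.11 SE (adjusted p = 0.722). Mlycd, malonyl-CoA decarboxylase, which removes their product, was also at 0.18 (± 0.074 SE, adjusted p = 0.559). Prkab2, a regulatory subunit of the kinase, had the largest sucrose and fat difference (-0.12 ± 0.087 SE, adjusted p = 1). Thrsp, the partner of Mid1ip1 known as Spot 14, was singled out after its values were seen, at -0.12 ± 0.075 SE for protein (unadjusted p = 0.17).

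Transcriptional regulators had a median of -0.073, with 7 of 20 above 0, and Srebf1 is not analysed here. Insig1, which holds SREBPs in the endoplasmic reticulum and is itself an SREBP target, was higher on each high protein array. It was at 10.04 on HP against 9.08 on NP, at 10.04 on HP-HS against 9.13 on NP-HS, and at 9.95 on HP-HS-HF against 9.73 on NP-HS-HF, with a fitted difference of 0.69 ± 0.15 SE (adjusted p = 0.247). Insig1 also had the largest sucrose and fat difference of the list, at 0.28 ± 0.18 SE (adjusted p = 0.9997). Ppargc1b, a coactivator of SREBP-1c, was at 0.22 ± 0.066 SE (adjusted p = 0.414). Mlxipl, which encodes ChREBP, was added after its values were seen, at -0.050 ± 0.074 SE (unadjusted p = 0.524).

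Other targets of SREBP-1c, LXR and ChREBP were below 0 in 11 of 13 tested (median -0.058). Fgf21, a liver hormone, was at -0.50 ± 0.10 SE (adjusted p = 0.233) and Txnip, a glucose-responsive arrestin, at -0.33 ± 0.093 SE (adjusted p = 0.392). G6pc1, the glucose-6-phosphatase, had the largest sucrose and fat difference, 0.30 ± 0.11 SE (adjusted p = 0.925).

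Genes of triglyceride assembly had a median of 0.023, with 8 of 15 tested above 0. Agpat3, an acyltransferase, was at -0.23 ± 0.067 SE (adjusted p = 0.416) and Gpam, the mitochondrial glycerol-phosphate acyltransferase, at 0.21 ± 0.081 SE (adjusted p = 0.532). The phosphatidate phosphatase Lpin1 had a sucrose and fat difference of -0.72 ± 0.095 SE (adjusted p = 0.76). Mitochondrial fatty acid synthesis, which feeds lipoic acid, had a median of -0.029 with 3 of 8 above 0. Its named members Mecr and Oxsm were at -0.15 ± 0.064 SE (adjusted p = 0.597) and -0.14 ± 0.082 SE (adjusted p = 0.726) for protein, and Lias at 0.17 ± 0.099 SE (adjusted p = 0.996) for sucrose and fat.

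Cholesterol synthesis, the SREBP-2 arm, had a median of 0.19, with 13 of 15 tested above 0. Of these 15, 5 were higher at an unadjusted p under 0.05, against 4.68% of all probe sets. Sqle, squalene epoxidase, was at 7.21 on HP against 5.81 on NP, at 7.11 on HP-HS against 6.66 on NP-HS, and at 7.52 on HP-HS-HF against 6.89 on NP-HS-HF (0.83 ± 0.17 SE, adjusted p = 0.242). Its sucrose and fat difference, 0.70 ± 0.21 SE (adjusted p = 0.877), was the largest of the list. The sterol reductase Tm7sf2 was at 0.73 ± 0.12 SE (adjusted p = 0.145).

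**Figure D5:**
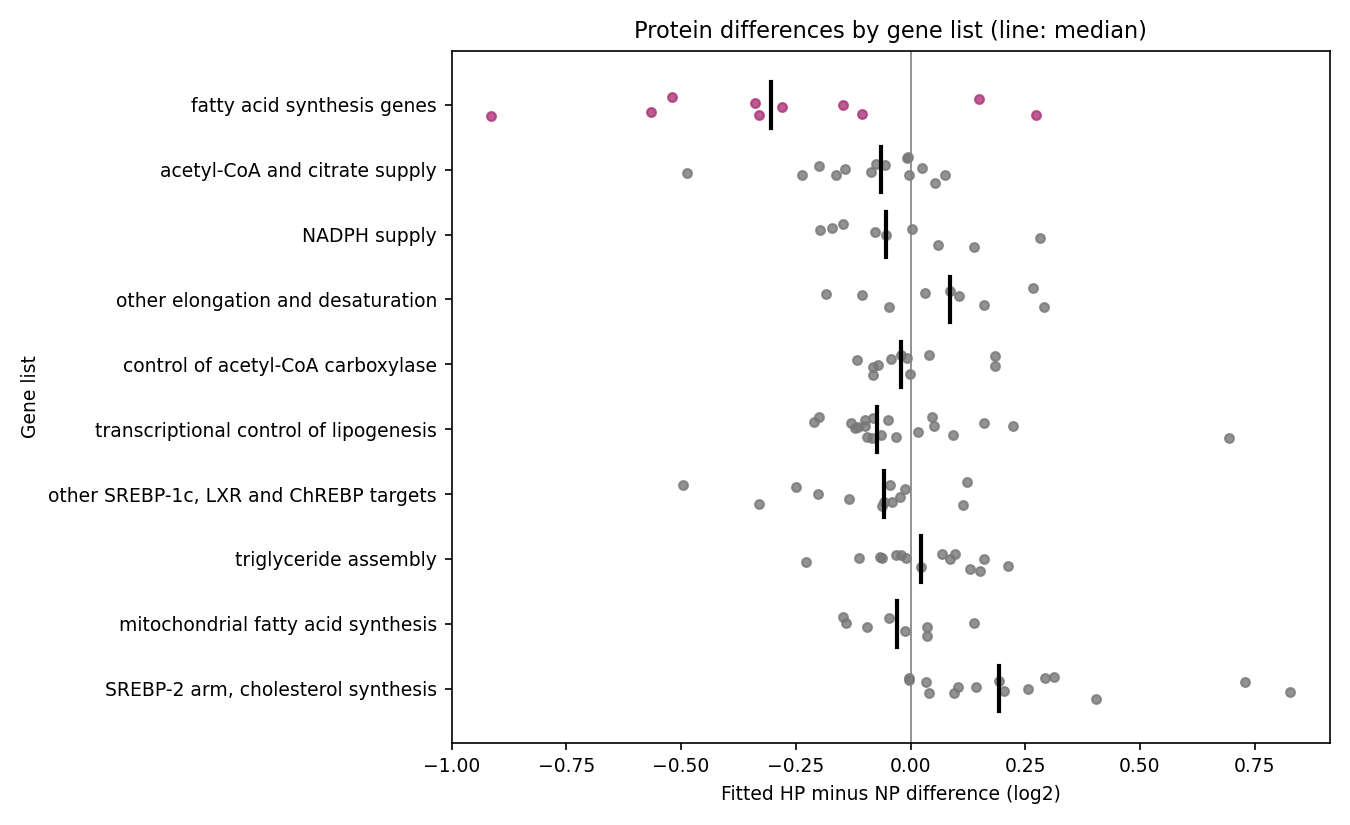
Fitted high protein minus normal protein difference (log2, horizontal axis) of the 10 fatty acid synthesis genes (top row) and of the tested genes of 9 related lists, with 1 point per gene, spread vertically at random, and a line at the median. The medians are -0.30 for fatty acid synthesis and 0.19 for cholesterol synthesis, and those of the other lists lie between -0.073 and 0.087.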

How the data were processed

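Whole-transcript Affymetrix arrays were hybridised with 6 liver RNA pools, 1500 ng from each of 5 rats per pool, per the labels' protocols. The deposited values are log2 probe-set signals that the authors made with RMA, per the submitters' processing notes. Its version is not given in the sources here. Of 29214 probe sets, 15310 had 1 gene symbol in the platform annotation and 323 had several.

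Probe sets with a mean above the 30th percentile, log2 5.14, entered a limma fit (version 3.58.1, R 4.3.3) of protein level plus background over the 6 arrays. This leaves 2 residual degrees of freedom, to which eBayes added 4.37 of prior. A call is an adjusted p under 0.05 (Benjamini-Hochberg, 20450 probe sets). The number of arrays limits the precision, and the code was tested on simulated data. Alternatives changed the filter, normalization, variance moderation, model terms and arrays.

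The 10 members and the lists (188 symbols) were chosen with earlier results of these data known. Named from a list were genes past the test, the 2 largest protein differences and the largest sucrose and fat difference. Diet composition tables are not used here.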

Additional observations from a re-analysis of the deposited data

Results flagged for a closer look

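Elovl6 was singled out because its sucrose difference had opposite signs at the 2 protein levels, each 1.2-fold or more. It was 0.40 at high protein (HP-HS minus HP) and -0.56 at normal protein (NP-HS minus NP) on the log2 scale. The difference between these values was not tested, because there was 1 array per diet. The comparison covered 60 pairs of differences over the 10 genes, of diet backgrounds at the 2 protein levels and of protein levels in 2 backgrounds. Of these 18 had opposite signs, and this 1 had both past that size.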

How the results depend on the processing

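No member passed the threshold under any setting, and the smallest adjusted p that a member reached was 0.0513. The 9 probe sets called for protein became 3 with no filter, 16 with arrays shifted to a common median, 51 with an intensity trend, 0 with an ordinary t statistic, and between 0 and 48 on leaving out an array (0 without an array of the low fat or high sucrose background, 48 without HP-HS-HF or NP-HS-HF). Sucrose gave 0 calls, 3 with the 4 arrays of its contrast alone and 0 to 3 on leaving out an array; fat 0 to 17; sucrose and fat 0 to 12. The members' median protein difference of -0.30 lay between -0.37 and -0.19 on leaving out an array, and was -0.19 without HP or NP. Signs of member effects were the same under every setting except on leaving out an array, where 16 of 40 effects turned. Their ranges were, for protein, Elovl6 -0.44 to 0.039. For sucrose they were Acaca -0.13 to 0.13, Elovl5 -0.084 to 0.018, Elovl6 -0.56 to 0.40, Fasn -0.18 to 0.093, Scd -0.28 to 0.55 and Scd2 -0.056 to 0.12. For fat they were Acacb -0.18 to 0.24, Elovl6 -0.40 to 0.078, Fasn -0.19 to 0.070 and Scd2 -0.035 to 0.11. For sucrose and fat they were Acacb -0.0046 to 0.41, Elovl6 -0.72 to 0.23, Fasn -0.24 to 0.032, Me1 -0.17 to 0.026 and Scd2 -0.019 to 0.15. Each such fit leaves 1 residual degree of freedom, and the lone array is assumed to vary like the others. The cause was not tested. The background term already pairs the protein levels within a background, and the labels carry no replicate numbers for a further block.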

Other observations

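Pnpla3, the lipid droplet protein and SREBP-1c target, was picked out after its values were seen, because like Elovl6 it had a large protein difference on low fat alone. It was at 6.18 on HP against 7.13 on NP, at 6.33 on HP-HS against 6.14 on NP-HS, and at 6.48 on HP-HS-HF against 6.46 on NP-HS-HF. The protein difference was -0.95 on low fat, 0.19 with sucrose and 0.015 with sucrose and fat, and the NP array was the highest of the 6, as in Elovl6.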
